A study of Arabidopsis thaliana with 8 samples.

Results

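Light harvesting, photosystem, electron transport and ATP synthase genes of the nucleus were followed by chromatin accessibility in Arabidopsis thaliana, in dry seeds, germinating seeds and seedlings. The 51 genes were chosen by name, not by measured values, though with earlier results of these data known. Each accessible chromatin region (ACR) belonged to a gene when its summit lay from 1000 bp upstream of the gene's start to 500 bp downstream of its end. This gave 80 of the 30223 ACRs of the series, at 50 of the 51 genes; PSAH2 had none. The assay was ATAC-seq, where a transposase cuts and tags DNA that nucleosomes leave exposed. All 8 libraries were of the Col-0 accession, 2 for each of 4 stages: dry seeds (DS), germinating seeds after 6 h (L6) and 26 h (L26) of light, and seedlings after 57 h of light (L57). Continuous light in liquid culture followed a cold, dark period called stratification. By the labels, embryos were pressed out of germinating seeds and parted from seed coats before nuclei were taken, and the handling of dry seeds and seedlings is not described. Tissue taken and chromatin state therefore cannot be told apart where DS or L57 is compared. Libraries of whole tissue also cannot tell fewer cells of a type from less signal per cell. The labels do not say that replicates were separate cultures, so a p-value here rests on spread among libraries that may be technical alone.

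Photosynthesis begins with light-harvesting proteins that bind chlorophyll and pass excitation to the reaction centres of photosystem I (PSI) and photosystem II (PSII). Electrons then move from PSII through the cytochrome b6f complex and plastocyanin to PSI, ferredoxin and NADP+, and the proton gradient drives the ATP synthase. The antenna proteins and many smaller subunits are encoded in the nucleus, and their genes are among the best known targets of light signalling and of the GLK transcription factors when cotyledons turn green. The embryo of a dry seed is not photosynthetic, and seedlings in the light assemble the apparatus.

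Upstream sequence of 7 genes is shown because their ACRs are described in the following paragraphs, and the genes were picked after their motif matches were seen. Each is up to 250 bases that end at the base before the annotated start, on the strand of the gene, from the RefSeq copy of TAIR10 (TAIR10.1). Capitals mark matches to the motifs searched, on either strand. These were the G-box CACGTG, the I-box core GATAAG, the GT-1 box GGTTAA, a first motif listed as GLK-type with the letters CCAATC, a second such motif with the letters AGATTCT, the site II elements of plant promoters written TGGGCC or, in the other form searched here, TGGGCT, the telo-box AAACCCTA, the evening element AAAATATCT and the TATA box TATAAA. LHCB1.3 and LHCB1.5 encode major antenna proteins of PSII whose ACRs were high in seedlings, and in each a CCAATC lay about the same distance from the start, at base -91 and base -89. LHCB1.4, whose promoter ACR was also high in seedlings, had no CCAATC in the 250 bases upstream of its start. Within 250 bp of the summit, that promoter ACR and the LHCB1.3 ACRs had none, while the LHCB1.5 promoter ACR did.
LHCB1.3, chr1:10477635-10477884, plus strand: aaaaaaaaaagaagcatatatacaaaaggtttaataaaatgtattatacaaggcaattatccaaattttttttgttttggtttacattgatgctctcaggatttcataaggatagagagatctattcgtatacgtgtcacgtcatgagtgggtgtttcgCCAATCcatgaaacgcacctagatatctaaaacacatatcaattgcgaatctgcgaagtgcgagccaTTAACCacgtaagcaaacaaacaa
LHCB1.5, chr2:14523569-14523818, minus strand: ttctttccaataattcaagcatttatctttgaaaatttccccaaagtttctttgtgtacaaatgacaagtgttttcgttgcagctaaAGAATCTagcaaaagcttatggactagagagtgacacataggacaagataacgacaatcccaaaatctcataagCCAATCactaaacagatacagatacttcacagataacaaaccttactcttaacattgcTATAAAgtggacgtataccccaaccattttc
LHCB4.1, a minor antenna protein gene of PSII, had a promoter ACR that was already high at L6. The first marked match in its sequence, GATTGG, lies before that ACR begins.
LHCB4.1, chr5:208616-208865, plus strand: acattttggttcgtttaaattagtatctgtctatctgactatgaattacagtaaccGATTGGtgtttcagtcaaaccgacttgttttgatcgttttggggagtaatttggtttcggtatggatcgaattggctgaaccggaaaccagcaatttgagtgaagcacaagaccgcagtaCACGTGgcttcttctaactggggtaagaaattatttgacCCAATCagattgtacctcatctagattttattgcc
LHCA2 and LHCA3 encode antenna proteins of PSI, and their promoter ACRs were higher at L26 than at L6. The LHCA3 sequence ends before its promoter ACR (chr1:22699756-22700396) begins, so its marked matches lie outside that ACR. No CCAATC lay within 250 bp of the summit of that ACR.
LHCA2, chr3:22745264-22745513, plus strand: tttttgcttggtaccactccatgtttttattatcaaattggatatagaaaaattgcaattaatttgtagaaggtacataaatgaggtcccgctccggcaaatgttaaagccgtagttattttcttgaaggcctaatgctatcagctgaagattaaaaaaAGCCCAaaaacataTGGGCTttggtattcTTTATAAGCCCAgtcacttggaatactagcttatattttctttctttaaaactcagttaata
LHCA3, chr1:22699465-22699714, plus strand: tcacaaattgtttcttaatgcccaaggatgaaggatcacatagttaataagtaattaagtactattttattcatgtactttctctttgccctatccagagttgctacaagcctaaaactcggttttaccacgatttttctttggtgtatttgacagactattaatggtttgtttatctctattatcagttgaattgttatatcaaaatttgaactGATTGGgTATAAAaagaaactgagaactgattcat
PSAE2 (a PSI subunit) holds a G-box, and PETC (the Rieske protein of cytochrome b6f) holds several site II matches. The PSAE2 sequence is shorter because it stops at an annotated exon.
PSAE2, chr2:8736598-8736733, plus strand: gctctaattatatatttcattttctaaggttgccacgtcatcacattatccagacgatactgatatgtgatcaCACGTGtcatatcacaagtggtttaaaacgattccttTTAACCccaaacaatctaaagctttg
PETC, chr4:1439896-1440145, plus strand: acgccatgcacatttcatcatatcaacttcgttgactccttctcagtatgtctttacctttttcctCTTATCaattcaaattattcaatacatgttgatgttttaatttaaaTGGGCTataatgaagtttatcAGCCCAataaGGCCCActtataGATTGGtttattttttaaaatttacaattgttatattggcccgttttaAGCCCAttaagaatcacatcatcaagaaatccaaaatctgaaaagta

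Of the 80 ACRs, 42 had their summit in the promoter, which here means 400 bp upstream to 100 bp downstream of any annotated transcript start of the gene, 19 in the gene body, 11 farther upstream and 8 downstream. Promoter summits lay between -391 and 124 bp of the nearest annotated transcript start of the gene. The median was -36 bp, and 32 of 42 were within 100 bp of that start. In 25 of the 42 the summit was outside the exons of the gene itself, and in 4 of those 25 it lay in an exon of another gene. In 16 it was in the 5' UTR and in 1 in a coding exon. Of the 51 genes, 41 had a promoter ACR. By complex, 9 ACRs belonged to the PSI antenna (LHCI), 22 to the PSII antenna (LHCII), 17 to PSI, 16 to PSII and 16 to electron transport and the ATP synthase. At 23 of the 80 the summit also lay in or near another gene, so it cannot be assigned to the photosynthesis gene alone; 11 of these were promoter ACRs. Values are CPM, counts adjusted for library size with a scaling that varies with abundance. An ACR's CPM grows with its width (239 to 1829 bp), so levels were compared between stages and not between ACRs. Mean CPM over the libraries was 6.44 to 165.5, with a median of 35.2, against a median of 23.3 over all ACRs. Total counts over all ACRs were 3697787 and 3734831 reads in DS, 3142490 and 3302541 reads at L6, 2089834 and 2531844 reads at L26, and 1534759 and 1853894 reads at L57, so L57 was measured with the least precision. Of genes listed as markers of other seed tissues, none of 6 for endosperm had a promoter ACR, and 4 of 8 for seed coat did.

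**Figure D1:**
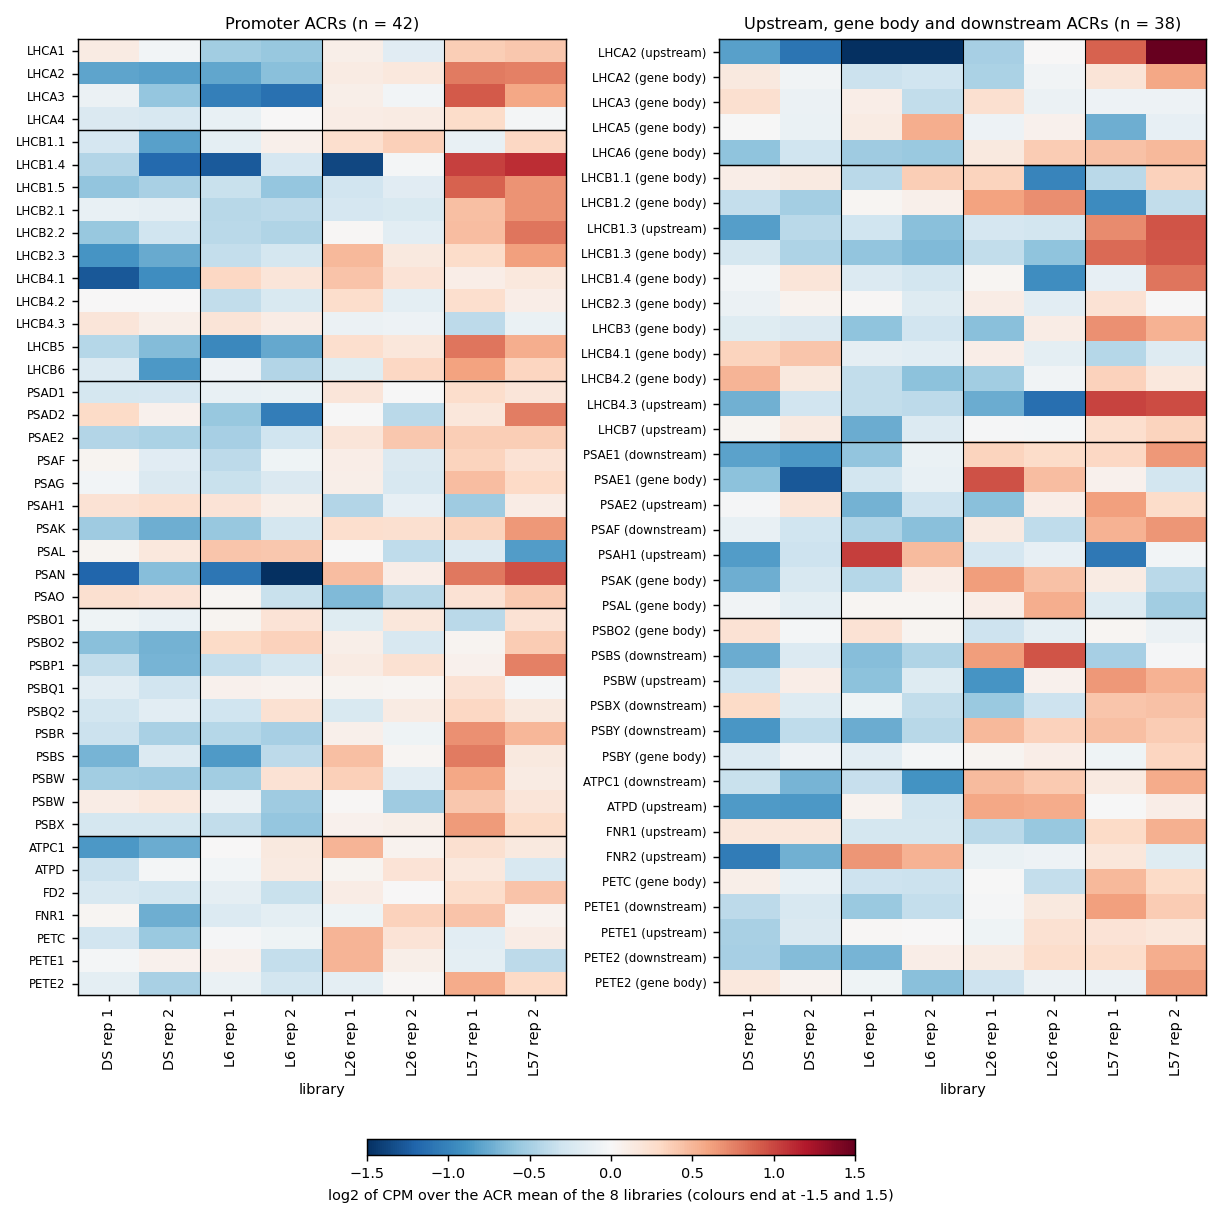
CPM of the 80 ACRs in the 8 libraries, as log2 of CPM over the mean of the ACR, with promoter ACRs on the left and all others on the right. Lines part the complexes (from the top LHCI, LHCII, PSI, PSII, electron transport and ATP synthase) and the stages, and 44 of the 62 ACRs called over the stages have their highest mean in the L57 columns.

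Seedlings were set against dry seeds to ask which of these regions differed in accessibility over the whole course. At L57, 43 of 80 ACRs were higher than in DS and 1 was lower at an adjusted p under 0.05 (called), where 17.0% and 12.2% of all ACRs were. Members were stronger than most ACRs, and among the 8936 ACRs at or above the median CPM of the members 23.0% were higher and 20.0% lower. The antenna genes LHCA2 and LHCB1.4 and the PSI subunit gene PSAN led the rises. The lone fall was an ACR at the 3' end of LHCB4.1. Among promoter ACRs 27 of 42 were higher and 0 lower, where 16.8% and 15.2% of all promoter ACRs were, and PSAL, PSAH1, LHCB4.3 and PETE1 had log2 fold changes below 0 that were not called. The median log2 fold change was 0.54 over the 80 and 0.67 over the 42, against -0.0089 over all ACRs and -0.020 over all promoter ACRs. Antenna genes had 11 of 15 promoter ACRs higher (median 1.06) and the other genes 16 of 27 (median 0.50), a difference that was not tested. In each of the 43 called rises both L57 libraries were above both DS libraries. Under the 20 alternatives to the scaling, test, samples or membership, counts were 27 (promoter ACRs only) to 47. Calls on 26 of the 43 held in every alternative that could be run on them, and 29 of 43 when any 1 library was left out.

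Rises outnumbered falls in the later steps. Between DS and L6, which includes imbibition and stratification, 9 ACRs were higher and 8 lower, where 17.6% and 14.3% of all ACRs were and, among promoters, 22.5% and 8.85%. The 9 and 8 of 80 are 11.25% and 10.0%. Of the promoter ACRs 4 were higher and 3 lower, and the median was 0.094, against 0.17 over all promoter ACRs. Between L6 and L26, 22 were higher and 3 lower (27.5% and 3.75%), where 8.71% and 7.91% of all ACRs and 7.13% and 9.50% of promoter ACRs were. Between L26 and L57, 21 were higher and 4 lower (26.25% and 5.00%), where 7.53% and 6.19% of all ACRs and 4.52% and 6.95% of promoter ACRs were. DESeq2 gave 8 higher and 1 lower at L6 against DS, 10 higher and 2 lower at L26 against L6, and 7 higher and 2 lower at L57 against L26. Over all ACRs its counts in these steps were 3189 and 1297, 1082 and 1719, and 816 and 1149. The fit used for the calls gave 5324 and 4333, 2633 and 2392, and 2276 and 1871 over all ACRs. With TMM factors 17 of the 80 were higher and 5 lower at L26 against L6, and 17 and 6 at L57 against L26. Over all ACRs these counts were 2903 and 3012, and 2117 and 2579. When 1 of the compared libraries was left out, counts over all ACRs fell in each step. The step counts of the 80 ACRs fell too, most at L57 against L26. The 4 falls were 2 without L57 replicate 1 or L57 replicate 2. At L26 against L6, 13 were higher without L6 replicate 1 and 14 without L26 replicate 1, and the 3 falls were 0 without L6 replicate 1 and 1 without L26 replicate 2. At L6 against DS, 5 were higher without DS replicate 2 or L6 replicate 2, and 4 were lower without DS replicate 1, L6 replicate 1 or L6 replicate 2.

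A test over all 4 stages called 62 of the 80 ACRs, where it called 56.6% of all ACRs. Of the 62, 44 had their highest mean at L57, 12 at L26, 4 at L6 and 2 in DS. Among the 32 called promoter ACRs 26 were highest at L57 (81.2%) and none in DS, whereas 20.0% of 5756 called promoter ACRs of the series were highest at L57 and 35.7% at L6. Each of the 7 called LHCI ACRs was highest at L57, and the 2 that were highest in DS lay in the bodies of LHCB4.1 and LHCB4.2. The shares are a description.

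**Figure D2:**
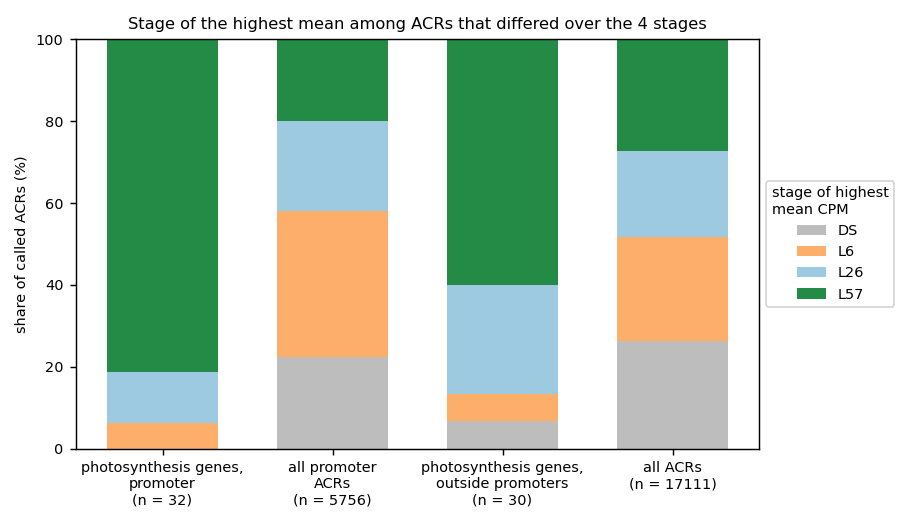
Share of ACRs called over the 4 stages by the stage with the highest mean CPM, for promoter ACRs of the photosynthesis genes, all promoter ACRs, other ACRs of the photosynthesis genes, and all ACRs. The L57 share is 81.2% and 60.0% in the photosynthesis bars, against 20.0% of all promoter ACRs and 27.3% of all ACRs.

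In the antenna of PSI 5 of 9 ACRs were higher at L26 than at L6 and 3 of 9 at L57 than at L26, with 0 lower in either step. LHCA2 (AT3G61470) showed the largest changes, at 2 ACRs. Its promoter ACR (chr3:22745097-22745964) had 38.5 and 38.1 CPM in DS, 38.8 and 43.4 CPM at L6, 72.9 and 74.4 CPM at L26, and 115 and 113 CPM at L57. Both L26 libraries were above every DS and L6 library, and both L57 libraries were above those. The log2 fold change was 0.84 ± 0.16 (adjusted p = 2.53e-05) at L26 against L6, 0.63 ± 0.16 (adjusted p = 0.00233) at L57 against L26 and 1.57 ± 0.16 (adjusted p = 1.51e-16) at L57 against DS. The L57 against L26 call did not hold with DESeq2 (log2 fold change 0.49, adjusted p = 0.0932). A second ACR 926 bp upstream (chr3:22744255-22744745) had 11.8 and 9.79 CPM in DS, 6.099 and 4.68 CPM at L6, 14.8 and 21.0 CPM at L26, and 38.6 and 60.1 CPM at L57. It was lowest at L6, with -1.003 ± 0.38 (adjusted p = 0.034) at L6 against DS, and its log2 fold change at L57 against DS, 2.21 ± 0.25 (adjusted p = 4.58e-14), was the largest of the 80. The fall at L6 against DS missed the threshold with DESeq2 or without DS replicate 1, L6 replicate 1 or L6 replicate 2 (log2 fold change -1.21 to -0.84, adjusted p = 0.0688 to 0.203). The ACR in the coding part of LHCA2 had 35.5 and 30.8 CPM in DS, 25.6 and 26.0 CPM at L6, 23.0 and 30.9 CPM at L26, and 36.6 and 47.8 CPM at L57 and was called in none of the 4 comparisons.

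LHCA3 and LHCA1 dipped at L6. The promoter ACR of LHCA3 (AT1G61520, chr1:22699756-22700396) had 23.4 and 16.7 CPM in DS, 12.2 and 11.5 CPM at L6, 26.5 and 24.3 CPM at L26, and 47.2 and 37.1 CPM at L57. Both L6 libraries lay below all others and both L57 libraries above all others. The changes were -0.76 ± 0.28 (adjusted p = 0.026) at L6 against DS and 1.09 ± 0.29 (adjusted p = 0.00267) at L26 against L6, and 1.06 ± 0.23 (adjusted p = 9.21e-05) at L57 against DS. The fall was lost with DESeq2 or without DS replicate 1, L6 replicate 1 or L6 replicate 2 (log2 fold change -0.81 to -0.51, adjusted p = 0.0866 to 0.306). The further rise at L57 against L26 was 0.73 ± 0.24 (adjusted p = 0.0287). That call did not hold with DESeq2 or without L26 replicate 1, L26 replicate 2, L57 replicate 1 or L57 replicate 2 (log2 fold change 0.54 to 0.89, adjusted p = 0.0505 to 0.285). The LHCA1 (AT3G54890) promoter ACR (chr3:20340687-20341676) had 81.2 and 72.8 CPM in DS, 51.9 and 50.3 CPM at L6, 79.8 and 66.7 CPM at L26, and 96.8 and 99.0 CPM at L57. It fell by 0.59 ± 0.14 at L6 against DS (adjusted p = 0.000473) and rose by 0.51 ± 0.16 (adjusted p = 0.0116) at L26 against L6. The rise missed the threshold with TMM factors, with DESeq2 or without L6 replicate 1, L6 replicate 2 or L26 replicate 1 (log2 fold change 0.31 to 0.53, adjusted p = 0.0577 to 0.373). The fall was lost with DESeq2 (log2 fold change -0.41, adjusted p = 0.108).

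LHCA6, a low-abundance PSI antenna protein that helps to join PSI to the NDH complex, had no ACR summit in the promoter window. Its 1 wide ACR (1829 bp) had its summit in a coding exon and extended over the gene's start. It had 75.8 and 93.6 CPM in DS, 79.6 and 78.4 CPM at L6, 128 and 150.05 CPM at L26, and 156 and 162 CPM at L57. The L26 and L57 libraries were all above the DS and L6 libraries, with 0.82 ± 0.12 (adjusted p = 4.04e-08) at L26 against L6 and 0.91 ± 0.13 (adjusted p = 7.95e-10) at L57 against DS. The wide promoter ACR of LHCA4 had 142 and 140.1 CPM in DS, 154 and 166 CPM at L6, 179 and 180.4 CPM at L26, and 201 and 162 CPM at L57. Its log2 fold change at L57 against DS was 0.35 ± 0.11 (adjusted p = 0.0108), but it was -0.25 with TMM factors, -0.14 with total counts and -0.22 with DESeq2, so its direction depended on the scaling. It was also not called without DS replicate 1 (0.30, adjusted p = 0.101), DS replicate 2 (0.28, adjusted p = 0.132) or L57 replicate 1 (0.23, adjusted p = 0.226). The intronic ACR of LHCA5, a minor PSI antenna gene, and the coding ACR of LHCA3 were not called over the 4 stages.

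The major antenna of PSII is built of trimers of LHCB1, LHCB2 and LHCB3 proteins. LHCB1 proteins come from 5 near-identical genes on chromosomes 1 and 2, and their ACRs followed different courses, a difference between genes that was not tested. LHCB1.4 and LHCB1.5 lie head to head, and each promoter ACR is also within 1000 bp upstream of the other gene. The LHCB1.4 ACR (AT2G34430, chr2:14524305-14524682) had 11.1 and 6.68 CPM in DS, 6.29 and 12.6 CPM at L6, 5.81 and 14.8 CPM at L26, and 30.7 and 32.2 CPM at L57. The LHCB1.5 ACR (AT2G34420, chr2:14523111-14523818) had 25.7 and 27.8 CPM in DS, 30.8 and 26.0 CPM at L6, 31.9 and 34.6 CPM at L26, and 71.8 and 62.1 CPM at L57. In both, the L57 libraries stood above the other 6, which overlapped between stages in LHCB1.4. The changes at L57 against L26 were 1.54 ± 0.30 (adjusted p = 7.13e-05) for LHCB1.4 and 1.00 ± 0.20 (adjusted p = 0.000164) for LHCB1.5. Against DS they were 1.82 ± 0.28 and 1.31 ± 0.20, and neither was called at L6 against DS or at L26 against L6.

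On chromosome 1, LHCB1.3 rose like the LHCB1.4 and LHCB1.5 pair. It had no summit in the promoter window. Its ACR over the start and coding sequence (chr1:10477653-10478497) had 35.2 and 30.8 CPM in DS, 28.2 and 26.7 CPM at L6, 32.8 and 27.8 CPM at L26, and 76.0 and 81.0 CPM at L57, and an ACR 523 bp upstream had 7.51 and 10.07 CPM in DS, 10.8 and 8.56 CPM at L6, 11.2 and 10.9 CPM at L26, and 21.6 and 25.5 CPM at L57. The rise at L57 against L26 was 1.38 ± 0.20 (adjusted p = 4.52e-08) in the coding ACR and 1.099 ± 0.31 (adjusted p = 0.00736) upstream. The upstream call did not hold with DESeq2 or without L26 replicate 2 or L57 replicate 2 (log2 fold change 0.96 to 1.18, adjusted p = 0.0544 to 0.109). LHCB1.2, a few kilobases away, had a different course. Its only ACR, with a summit in the coding exon (chr1:10472256-10473046), had 29.9 and 27.0 CPM in DS, 39.0 and 40.2 CPM at L6, 58.1 and 62.3 CPM at L26, and 20.0 and 29.7 CPM at L57. The L26 libraries were highest, and the L57 and DS libraries overlapped. The fall at L57 against L26 was -1.26 ± 0.23 (adjusted p = 1.27e-05), while the rises were 0.48 ± 0.19 (adjusted p = 0.0438) at L6 against DS and 0.61 ± 0.18 (adjusted p = 0.00964) at L26 against L6. The call at L6 against DS missed the threshold with the earlier form of the test, with DESeq2 or without DS replicate 1, DS replicate 2, L6 replicate 1 or L6 replicate 2 (log2 fold change 0.38 to 0.58, adjusted p = 0.0557 to 0.249). The call at L26 against L6 was lost with DESeq2 or without L6 replicate 1, L6 replicate 2 or L26 replicate 2 (log2 fold change 0.54 to 0.61, adjusted p = 0.0638 to 0.126). LHCB1.1 had 15.6 and 10.5 CPM in DS, 16.8 and 19.6 CPM at L6, 22.1 and 23.7 CPM at L26, and 17.1 and 22.9 CPM at L57 at its promoter ACR, which was called over the 4 stages but in none of the 4 comparisons. The copies share sequence, and reads from identical stretches cannot be placed. Of all 50-base words in the ACR, 34.9% occur elsewhere in the nuclear genome in the body of LHCB1.1, 11.1% in the LHCB1.5 promoter ACR, 7.28% in LHCB1.2 and 4.27% in LHCB1.3, against 0 in the LHCB1.1 and LHCB1.4 promoter ACRs. Signal in ACRs with shared words is uncertain between copies, and its effect was not tested.

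The 3 LHCB2 genes had promoter ACRs that were all higher at L57 than in DS. LHCB2.1 had 30.5 and 30.0 CPM in DS, 24.8 and 25.3 CPM at L6, 27.7 and 28.3 CPM at L26, and 45.2 and 52.5 CPM at L57. LHCB2.2 had 26.8 and 32.2 CPM in DS, 30.1 and 29.0 CPM at L6, 40.3 and 35.4 CPM at L26, and 54.6 and 69.0 CPM at L57. LHCB2.3 had 12.5 and 13.6 CPM in DS, 18.0 and 19.2 CPM at L6, 32.3 and 25.4 CPM at L26, and 28.0 and 35.3 CPM at L57. In each, both L57 libraries were above both DS libraries, and in LHCB2.3 the L26 libraries (32.3 and 25.4 CPM) overlapped those of L57. The log2 fold changes at L57 against DS were 0.70 ± 0.21 (adjusted p = 0.00477), 1.08 ± 0.20 (adjusted p = 2.17e-06) and 1.29 ± 0.27 (adjusted p = 3.49e-05). The LHCB2.1 call did not hold without L57 replicate 2 (log2 fold change 0.58, adjusted p = 0.126). At L57 against L26, LHCB2.1 and LHCB2.2 rose by 0.81 ± 0.23 and 0.72 ± 0.20. The LHCB2.1 call at this step missed the threshold without L57 replicate 2 (log2 fold change 0.69, adjusted p = 0.128). The LHCB2.2 call at this step was lost with DESeq2 or without L26 replicate 2 or L57 replicate 2 (log2 fold change 0.52 to 0.68, adjusted p = 0.0755 to 0.219). Whether the LHCB2 genes differ from each other in this step was not tested. LHCB3, which encodes the remaining trimer protein, had 1 ACR with its summit in the 5' UTR 139 bp from the start. It had 37.7 and 36.5 CPM in DS, 28.1 and 34.9 CPM at L6, 27.7 and 46.0 CPM at L26, and 68.6 and 61.1 CPM at L57, with 0.80 ± 0.19 (adjusted p = 0.000323) at L57 against DS.

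The minor antenna proteins LHCB4, LHCB5 and LHCB6 connect the trimers to the PSII core. LHCB5 (CP26, AT4G10340) had the smallest adjusted p of the LHCII group at L57 against DS, and its promoter ACR (chr4:6407221-6408613) had 54.2 and 46.8 CPM in DS, 37.4 and 42.9 CPM at L6, 87.3 and 82.4 CPM at L26, and 127 and 107 CPM at L57. Both L26 libraries were above all 4 earlier ones, and the L57 libraries were above those. The rise was 1.08 ± 0.16 (adjusted p = 2e-08) at L26 against L6 and 1.204 ± 0.15 (adjusted p = 1.2e-11) at L57 against DS. At L57 against L26 it was 0.46 ± 0.15 (adjusted p = 0.0284). That last call did not hold with TMM factors, with total counts, with GC-corrected offsets, with DESeq2 or without L26 replicate 1, L26 replicate 2 or L57 replicate 1 (log2 fold change 0.28 to 0.48, adjusted p = 0.0737 to 0.362). LHCB6 (CP24) had 31.3 and 19.8 CPM in DS, 34.1 and 26.5 CPM at L6, 31.9 and 44.9 CPM at L26, and 55.02 and 45.1 CPM at L57, with 0.96 ± 0.22 (adjusted p = 0.000154) at L57 against DS. LHCB4.1 (CP29, AT5G01530) moved earlier and in 2 directions. Its promoter ACR (chr5:208683-209086) had 16.6 and 20.9 CPM in DS, 49.6 and 45.3 CPM at L6, 53.9 and 46.3 CPM at L26, and 42.7 and 44.5 CPM at L57. All 6 libraries after DS were above both DS libraries, with 1.33 ± 0.20 (adjusted p = 1.07e-08) at L6 against DS and 1.21 ± 0.23 (adjusted p = 5.27e-06) at L57 against DS, and neither later step was called. An ACR at its 3' end (chr5:209865-210748, summit in the 3' UTR) had 129.999 and 137 CPM in DS, 93.8 and 92.3 CPM at L6, 111 and 93.3 CPM at L26, and 76.7 and 90.4 CPM at L57. Both DS libraries were above the other 6, with -0.52 ± 0.11 (adjusted p = 9.72e-05) at L6 against DS and -0.67 ± 0.14 (adjusted p = 3e-05) at L57 against DS. The call at L6 against DS missed the threshold with DESeq2 (log2 fold change -0.35, adjusted p = 0.124). The paralog LHCB4.2 had a promoter ACR with 62.8 and 62.9 CPM in DS, 48.5 and 53.5 CPM at L6, 75.2 and 56.4 CPM at L26, and 74.6 and 66.8 CPM at L57 and no call, and a coding ACR with 23.6 and 18.3 CPM in DS, 12.9 and 10.9 CPM at L6, 11.6 and 16.0 CPM at L26, and 21.0 and 18.5 CPM at L57 that fell at L6 against DS by 0.82 ± 0.27 (adjusted p = 0.013). That call was lost with GC-corrected offsets, with DESeq2 or without DS replicate 1 or L6 replicate 2 (log2 fold change -0.92 to -0.55, adjusted p = 0.0681 to 0.184). LHCB4.3 had 97.1 and 91.1 CPM in DS, 98.1 and 92.9 CPM at L6, 80.5 and 81.3 CPM at L26, and 65.5 and 80.0 CPM at L57 at its promoter ACR, with -0.36 ± 0.15 (adjusted p = 0.0595) at L57 against DS, which was not called, while a weak ACR 656 bp upstream, also in the 3' UTR of a neighbouring gene, rose by 1.93 ± 0.39 (adjusted p = 0.000117) at L57 against L26. LHCB7 had 1 ACR, 972 bp upstream and in the promoter of CP12-3, with 113 and 120.0 CPM in DS, 65.5 and 95.3 CPM at L6, 109 and 107 CPM at L26, and 130.3 and 138 CPM at L57. It fell by 0.53 at L6 against DS and rose at L26 against L6 (0.42 ± 0.13). The fall did not hold with DESeq2 or without L6 replicate 1 (log2 fold change -0.36 to -0.26, adjusted p = 0.131 to 0.197). The rise missed the threshold with TMM factors, with total counts, with DESeq2 or without L6 replicate 1, L26 replicate 1 or L26 replicate 2 (log2 fold change 0.11 to 0.44, adjusted p = 0.0622 to 0.811).

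**Figure D3:**
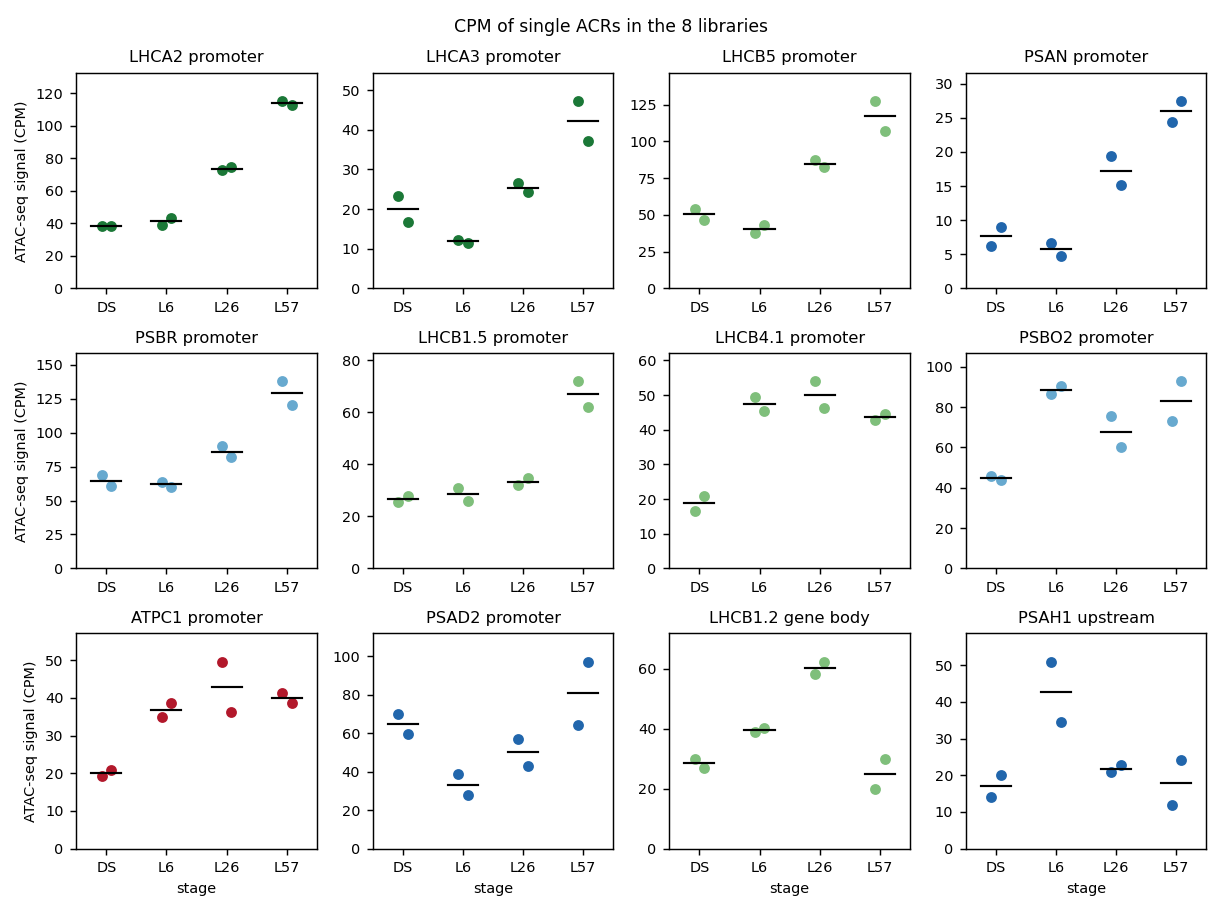
CPM of 12 ACRs in each library (dots) with the mean of the 2 libraries of a stage (bars), coloured by complex and each with an axis from 0. Called rises at both L26 against L6 and L57 against L26 are seen in LHCA2, LHCA3, LHCB5, PSBR and PSAD2. Each of these lost 1 or both in some alternatives. PSAN has a called rise at L26 against L6, LHCB1.5 at L57 against L26, and LHCB4.1, PSBO2 and ATPC1 at L6 against DS. The mean of LHCB1.2 is highest at L26 and that of PSAH1 upstream at L6.

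In PSI, 8 of 17 ACRs were higher at L57 than in DS and 0 were lower, and 5 of 10 promoter ACRs were. PSAN (AT5G64040), a subunit on the lumen side where plastocyanin docks, had the largest change. Its promoter ACR (chr5:25629443-25629810) had 6.19 and 9.04 CPM in DS, 6.68 and 4.79 CPM at L6, 19.4 and 15.1 CPM at L26, and 24.4 and 27.4 CPM at L57. The L26 and L57 libraries were all above the DS and L6 libraries, with 1.57 ± 0.35 (adjusted p = 0.000365) at L26 against L6 and 1.77 ± 0.29 (adjusted p = 2.01e-07) at L57 against DS. PSAE2, which encodes a subunit at the ferredoxin docking site, had 47.6 and 46.4 CPM in DS, 45.9 and 52.4 CPM at L6, 73.3 and 85.4 CPM at L26, and 83.3 and 83.3 CPM at L57. It rose by 0.70 ± 0.16 (adjusted p = 0.000341) at L26 against L6 and then showed no called change. The call was lost with DESeq2 (log2 fold change 0.53, adjusted p = 0.0584). The summit also lies in the promoter of AT2G20250. PSAK, a subunit on the antenna side, had 28.7 and 25.02 CPM in DS, 28.2 and 34.7 CPM at L6, 49.7 and 49.1 CPM at L26, and 52.5 and 65.7 CPM at L57 and was higher by 1.149 ± 0.20 (adjusted p = 7.74e-07) at L57 than in DS.

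The PSAD paralogs, both coding for the ferredoxin docking subunit, differed in pattern. PSAD2 had 70.0 and 59.6 CPM in DS, 38.5 and 28.0 CPM at L6, 56.8 and 43.1 CPM at L26, and 64.2 and 97.2 CPM at L57. Its L6 libraries were below all others, with -0.97 ± 0.17 (adjusted p = 8.05e-07) at L6 against DS, 0.58 ± 0.19 (adjusted p = 0.0225) at L26 against L6 and 0.73 ± 0.18 (adjusted p = 0.00276) at L57 against L26. The L26 against L6 call did not hold with TMM factors, in a fit of the 2 stages alone, with DESeq2 or without L6 replicate 2 or L26 replicate 1 (log2 fold change 0.37 to 0.51, adjusted p = 0.0605 to 0.328). The L57 against L26 call missed the threshold with DESeq2 or without L26 replicate 2 or L57 replicate 2 (log2 fold change 0.36 to 0.59, adjusted p = 0.11 to 0.404). Its summit also lay in the 3' UTR of AT1G03140, so the ACR cannot be assigned to PSAD2 alone. PSAD1 had 111 and 112 CPM in DS, 123 and 124 CPM at L6, 151 and 133 CPM at L26, and 159 and 151 CPM at L57, with 0.48 ± 0.12 (adjusted p = 0.000839) at L57 against DS. That call ended with TMM factors (-0.012, adjusted p = 0.959), total counts (0.089, adjusted p = 0.65) and DESeq2 (0.0093, adjusted p = 0.979), so its direction depended on the scaling. The difference between PSAD1 and PSAD2 was not tested.

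Among the other PSI genes, PSAF, which also serves plastocyanin docking, had 39.2 and 33.9 CPM in DS, 28.9 and 36.3 CPM at L6, 40.8 and 32.7 CPM at L26, and 48.0 and 44.3 CPM at L57 at its promoter ACR and no call. PSAG had 63.7 and 56.0 CPM in DS, 51.8 and 56.1 CPM at L6, 69.6 and 55.4 CPM at L26, and 89.8 and 80.1 CPM at L57, with 0.50 ± 0.16 (adjusted p = 0.0104) at L57 against DS. The PSAG call was lost with TMM factors, with DESeq2 or without DS replicate 2 or L57 replicate 1 (log2 fold change 0.33 to 0.42, adjusted p = 0.114 to 0.219). PSAO, which helps the antenna dock to PSI, had 38.6 and 37.7 CPM in DS, 33.3 and 25.9 CPM at L6, 20.6 and 24.4 CPM at L26, and 37.9 and 42.7 CPM at L57 and rose by 0.83 ± 0.25 (adjusted p = 0.0126) at L57 against L26. That call did not hold with DESeq2 or without L26 replicate 1 or L57 replicate 2 (log2 fold change 0.72 to 0.82, adjusted p = 0.0545 to 0.14). PSAL, which encodes a core subunit beside PSAH, had 69.4 and 64.96 CPM in DS, 73.7 and 73.3 CPM at L6, 76.9 and 105 CPM at L26, and 62.8 and 50.2 CPM at L57 in its coding ACR, which fell at L57 against L26 by 0.71 ± 0.17 (adjusted p = 0.00181). That call missed the threshold without L26 replicate 2 or L57 replicate 2 (log2 fold change -0.52 to -0.48, adjusted p = 0.134 to 0.138). Its promoter ACR, with 18.8 and 20.5 CPM in DS, 24.5 and 24.3 CPM at L6, 18.3 and 14.1 CPM at L26, and 16.0 and 10.2 CPM at L57, was called over the 4 stages but in none of the 4 comparisons. PSAH1 had 15.3 and 15.7 CPM in DS, 15.2 and 14.0 CPM at L6, 9.71 and 12.1 CPM at L26, and 9.10 and 14.2 CPM at L57 at its promoter ACR with no call. An ACR 876 bp upstream of PSAH1 had 13.9 and 20.0 CPM in DS, 51.0 and 34.4 CPM at L6, 20.8 and 22.7 CPM at L26, and 11.8 and 24.1 CPM at L57, rose by 1.32 ± 0.22 (adjusted p = 2.48e-07) at L6 against DS and fell by 0.96 ± 0.23 (adjusted p = 0.000994) at L26 against L6. The fall was lost with DESeq2 or without L6 replicate 1 (log2 fold change -0.91 to -0.68, adjusted p = 0.0646 to 0.116). PSAE1 had no promoter ACR and a coding ACR with 14.1 and 8.98 CPM in DS, 17.9 and 20.0 CPM at L6, 41.96 and 29.7 CPM at L26, and 22.6 and 17.8 CPM at L57, which was called in all 4 comparisons, up at L6 and L26 and down at L57 against L26. Its rise at L6 against DS did not hold with TMM factors, with total counts, with DESeq2 or without DS replicate 2, L6 replicate 1 or L6 replicate 2 (log2 fold change 0.39 to 0.80, adjusted p = 0.0567 to 0.416). Its rise at L26 against L6 missed the threshold without L6 replicate 1 or L26 replicate 1 (log2 fold change 0.63 to 0.81, adjusted p = 0.059 to 0.15). Its fall at L57 against L26 was lost with total counts, with DESeq2 or without L26 replicate 1, L57 replicate 1 or L57 replicate 2 (log2 fold change -0.98 to -0.60, adjusted p = 0.0584 to 0.265). Its call at L57 against DS did not hold with DESeq2 or without DS replicate 2, L57 replicate 1 or L57 replicate 2 (log2 fold change 0.50 to 0.98, adjusted p = 0.0597 to 0.332).

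In PSII, 7 of 16 ACRs were higher at L57 than in DS and 0 were lower, and 6 of 10 promoter ACRs were. PSBR (AT1G79040), a subunit that helps to hold the oxygen-evolving proteins, had 68.5 and 60.8 CPM in DS, 63.4 and 60.3 CPM at L6, 89.8 and 81.8 CPM at L26, and 138 and 120.3 CPM at L57 at its promoter ACR (chr1:29735030-29736268). The L26 libraries were above all earlier ones and the L57 libraries above those, with 0.99 ± 0.14 (adjusted p = 1.75e-09) at L57 against DS, 0.47 ± 0.14 (adjusted p = 0.0129) at L26 against L6 and 0.58 ± 0.15 (adjusted p = 0.0026) at L57 against L26. The L26 against L6 call of PSBR missed the threshold with TMM factors, with total counts, with DESeq2 or without L6 replicate 1, L6 replicate 2 or L26 replicate 1 (log2 fold change 0.23 to 0.50, adjusted p = 0.0559 to 0.518). Its L57 against L26 call was lost with TMM factors, with DESeq2 or without L26 replicate 2 or L57 replicate 1 (log2 fold change 0.37 to 0.51, adjusted p = 0.0516 to 0.171). PSBX, a small core subunit, had 66.9 and 67.003 CPM in DS, 62.2 and 53.6 CPM at L6, 83.9 and 85.5 CPM at L26, and 125 and 97.7 CPM at L57, with 0.55 ± 0.15 (adjusted p = 0.00354) at L26 against L6 and 0.72 ± 0.15 (adjusted p = 2.51e-05) at L57 against DS. The L26 against L6 call did not hold with TMM factors, with DESeq2 or without L6 replicate 2 (log2 fold change 0.32 to 0.44, adjusted p = 0.102 to 0.315). PSBS, the photoprotective protein of PSII that senses acidification of the lumen, had 11.7 and 16.5 CPM in DS, 10.6 and 14.5 CPM at L6, 25.9 and 19.5 CPM at L26, and 32.5 and 21.0 CPM at L57, and its promoter ACR was higher at L57 than in DS by 0.90 ± 0.27 (adjusted p = 0.00681). That call missed the threshold without DS replicate 1 or L57 replicate 1 (log2 fold change 0.57 to 0.68, adjusted p = 0.117 to 0.268).

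The oxygen-evolving complex is capped by the PSBO, PSBP and PSBQ proteins. PSBO2 (AT3G50820) had 46.0 and 43.6 CPM in DS, 86.7 and 90.3 CPM at L6, 75.5 and 60.1 CPM at L26, and 73.2 and 92.7 CPM at L57, with all 6 later libraries above the DS libraries and 0.98 ± 0.14 (adjusted p = 3.51e-09) at L6 against DS. The fall at L26 against L6 was -0.39 ± 0.15 (adjusted p = 0.0469). That fall was lost with the earlier form of the test, with a replicate block, in a fit of the 2 stages alone or without DS replicate 1, DS replicate 2, L6 replicate 1, L6 replicate 2, L26 replicate 2 or L57 replicate 1 (log2 fold change -0.45 to -0.22, adjusted p = 0.0502 to 0.528). Its paralog PSBO1 had 91.6 and 88.7 CPM in DS, 97.8 and 110.3 CPM at L6, 84.3 and 108 CPM at L26, and 72.3 and 111 CPM at L57 and no call over the 4 stages or in any of the 4 comparisons. The log2 fold change of PSBO1 at L57 against DS was 0.048 ± 0.15, and the difference between the paralogs was not tested. PSBP1 had 38.5 and 30.6 CPM in DS, 38.8 and 41.4 CPM at L6, 53.9 and 58.4 CPM at L26, and 51.8 and 83.9 CPM at L57, with 1.00 ± 0.19 (adjusted p = 4.05e-06) at L57 against DS. That call did not hold without L57 replicate 2 (log2 fold change 0.56, adjusted p = 0.121). PSBQ1 and PSBQ2 were not called, with log2 fold changes at L57 against DS of 0.32 ± 0.18 and 0.44 ± 0.22. Of the small subunits PSBW and PSBY, a PSBW promoter ACR at the start was higher at L57 than in DS by 0.87 ± 0.29 (adjusted p = 0.0128), and PSBY had an ACR past its end, also in the 3' UTR of KCR1, with 1.02 ± 0.25 (adjusted p = 0.000451). The PSBW call missed the threshold without DS replicate 2 or L57 replicate 1 (log2 fold change 0.65 to 0.87, adjusted p = 0.0546 to 0.221).

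In electron transport and the ATP synthase, 11 of 16 ACRs were higher at L57 than in DS and 0 were lower, and 5 of 7 promoter ACRs were. ATPC1 (AT4G04640), the gamma subunit of the ATP synthase, had 19.2 and 20.9 CPM in DS, 34.97 and 38.6 CPM at L6, 49.7 and 36.4 CPM at L26, and 41.2 and 38.8 CPM at L57 at its promoter ACR (chr4:2351639-2352250). All 6 later libraries were above the DS libraries, with 0.87 ± 0.21 (adjusted p = 0.000497) at L6 against DS and 0.99 ± 0.23 (adjusted p = 0.000323) at L57 against DS. PETC, the Rieske protein of cytochrome b6f, had 69.2 and 57.3 CPM in DS, 83.0 and 80.4 CPM at L6, 120.3 and 96.8 CPM at L26, and 75.3 and 91.2 CPM at L57, with 0.37 ± 0.13 (adjusted p = 0.0249) at L6 against DS. That call was lost with GC-corrected offsets or without DS replicate 2, L6 replicate 1 or L6 replicate 2 (log2 fold change 0.20 to 0.41, adjusted p = 0.0652 to 0.394). Its mean was highest at L26, with 0.40 ± 0.13 (adjusted p = 0.0236) at L26 against L6. The L26 call did not hold with TMM factors, with total counts, with DESeq2 or without L6 replicate 1, L6 replicate 2 or L26 replicate 1 (log2 fold change 0.16 to 0.41, adjusted p = 0.108 to 0.704). PETC was also called higher at L57 than in DS. That call was lost with TMM factors (log2 fold change 0.13), total counts (0.23), GC-corrected offsets (0.31), DESeq2 (0.15) or the 2 stages alone (0.33). It was also lost without DS replicate 2 (0.26) or L57 replicate 2 (0.27). The plastocyanin gene PETE2 had 55.8 and 44.2 CPM in DS, 57.5 and 51.0 CPM at L6, 55.9 and 62.3 CPM at L26, and 90.7 and 76.1 CPM at L57 at its promoter ACR, with 0.73 ± 0.17 (adjusted p = 0.000182) at L57 against DS. The other plastocyanin gene, PETE1, had a promoter ACR that was not called (28.7 and 30.8 CPM in DS, 30.7 and 23.0 CPM at L6, 41.8 and 31.2 CPM at L26, and 26.6 and 22.5 CPM at L57), and a wide ACR 1512 bp long past its end with 117 and 131 CPM in DS, 105 and 120.3 CPM at L6, 153 and 171 CPM at L26, and 237 and 201 CPM at L57. That downstream ACR rose by 0.81 ± 0.11 (adjusted p = 5.46e-10) at L57 against DS. The call missed the threshold with TMM factors or with DESeq2 (log2 fold change 0.26 to 0.28, adjusted p = 0.101 to 0.142).

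Ferredoxin and its reductase end the chain. FD2 had 66.0 and 64.0 CPM in DS, 70.6 and 61.7 CPM at L6, 83.8 and 78.1 CPM at L26, and 93.3 and 104 CPM at L57, higher at L57 than in DS by 0.61 ± 0.15 (adjusted p = 0.000562). The call was lost with TMM factors or with DESeq2 (log2 fold change 0.37 to 0.39, adjusted p = 0.0569 to 0.126). FNR1 had 57.6 and 34.2 CPM in DS, 49.0 and 50.9 CPM at L6, 53.9 and 71.8 CPM at L26, and 76.2 and 58.7 CPM at L57, with 0.54 ± 0.18 (adjusted p = 0.015). That call did not hold with TMM factors, with DESeq2 or without DS replicate 2 or L57 replicate 1 (log2 fold change 0.21 to 0.46, adjusted p = 0.0615 to 0.509). An ACR 640 bp upstream of FNR1, in a coding exon of ARO2, had 50.2 and 50.2 CPM in DS, 37.2 and 37.4 CPM at L6, 33.8 and 30.2 CPM at L26, and 54.6 and 64.7 CPM at L57 and rose by 0.91 ± 0.21 (adjusted p = 0.000848) at L57 against L26. That call missed the threshold without L57 replicate 2 (log2 fold change 0.77, adjusted p = 0.064). FNR2 had no promoter ACR, and an ACR 707 bp upstream, within an annotated long non-coding RNA, had 15.8 and 19.8 CPM in DS, 51.5 and 46.8 CPM at L6, 30.5 and 30.9 CPM at L26, and 36.6 and 28.8 CPM at L57. It was highest at L6, with 1.46 ± 0.20 (adjusted p = 8.35e-10) at L6 against DS and -0.68 ± 0.20 (adjusted p = 0.0101) at L26 against L6. The fall was lost with DESeq2 or without L6 replicate 1, L26 replicate 1 or L26 replicate 2 (log2 fold change -0.68 to -0.64, adjusted p = 0.0594 to 0.0862). ATPD had 49.9 and 61.3 CPM in DS, 60.9 and 68.3 CPM at L6, 64.4 and 71.8 CPM at L26, and 69.8 and 52.9 CPM at L57 at a promoter ACR shared with a neighbouring gene, with no call.

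**Figure D4:**
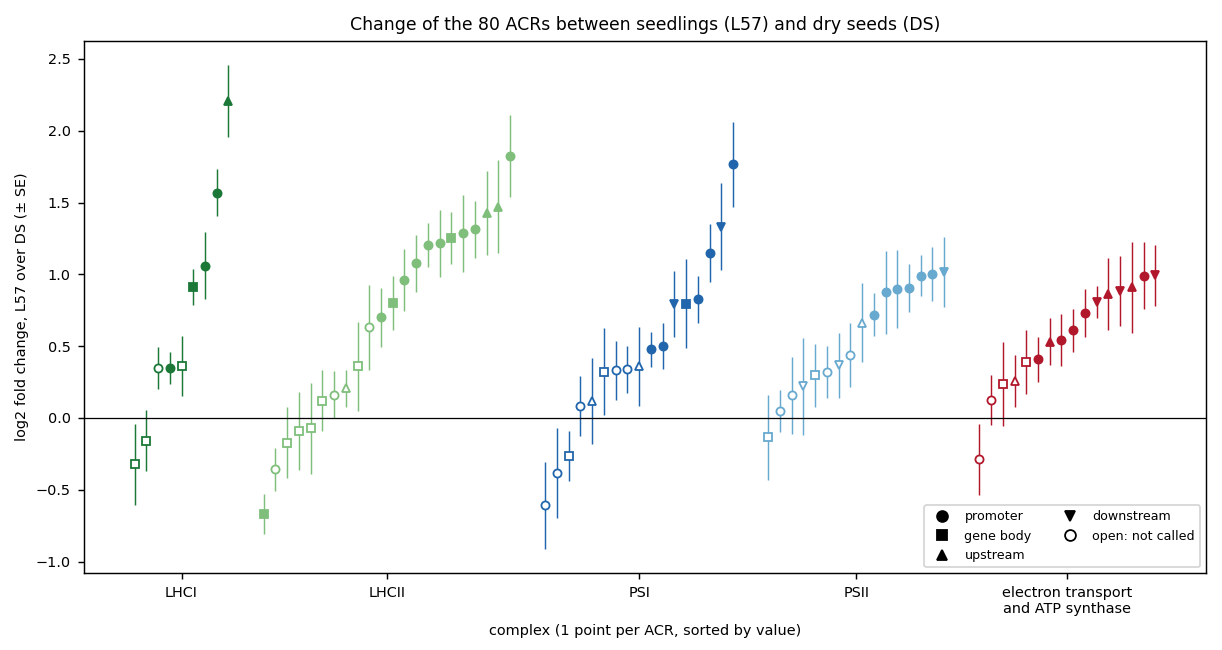
Log2 fold change of the 80 ACRs at L57 over DS with its SE, by complex and sorted within it. Filled symbols were called and shapes give the position; the 43 called rises are spread over all 5 complexes, and the 1 called fall (LHCB4.1 gene body) is in LHCII.

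Several genes also had ACRs past their ends or farther upstream. The ACR past PETE2 had 28.2 and 25.3 CPM in DS, 24.5 and 42.6 CPM at L6, 43.1 and 47.8 CPM at L26, and 47.7 and 58.0 CPM at L57, and was higher at L57 than in DS by 0.99 ± 0.21 (adjusted p = 5.17e-05). The ACR past PSAE1, in a coding exon of AT4G28740, was higher by 1.33 ± 0.30 (adjusted p = 0.000159), that past PSAF, in the 3' UTR of LBD4, by 0.80 ± 0.23 (adjusted p = 0.00369), and that past ATPC1, in an exon of a non-coding RNA, by 0.88 ± 0.25 (adjusted p = 0.0026). The PSAF call did not hold without DS replicate 2 or L57 replicate 2 (log2 fold change 0.70 to 0.72, adjusted p = 0.0507 to 0.0826). The ATPC1 call missed the threshold without DS replicate 2 or L57 replicate 2 (log2 fold change 0.64 to 0.70, adjusted p = 0.0628 to 0.18). The ACR past PSBS had 8.63 and 12.5 CPM in DS, 9.26 and 10.6 CPM at L6, 22.3 and 27.6 CPM at L26, and 10.2 and 14.2 CPM at L57. Its L26 libraries were the highest, with 1.34 ± 0.29 (adjusted p = 0.000185) at L26 against L6 and -1.03 ± 0.31 (adjusted p = 0.0129) at L57 against L26. The fall was lost with DESeq2 or without L26 replicate 2 or L57 replicate 1 (log2 fold change -0.94 to -0.83, adjusted p = 0.136 to 0.165). Farther upstream of ATPD and PETE1, ACRs were higher at L57 than in DS by 0.91 ± 0.32 (adjusted p = 0.0196) and 0.53 ± 0.16 (adjusted p = 0.00764). The ATPD call did not hold with GC-corrected offsets or without DS replicate 1, DS replicate 2, L57 replicate 1 or L57 replicate 2 (log2 fold change 0.74 to 0.96, adjusted p = 0.0606 to 0.143). The PETE1 call missed the threshold with TMM factors, with DESeq2 or without DS replicate 1 or L57 replicate 2 (log2 fold change 0.35 to 0.57, adjusted p = 0.0516 to 0.192). The ACRs upstream of PSBW and past PSBX, each in a coding exon of another gene, rose only at L57 against L26, by 0.87 ± 0.31 and 0.85 ± 0.26. The PSBW call was lost with GC-corrected offsets, with DESeq2 or without L26 replicate 1, L57 replicate 1 or L57 replicate 2 (log2 fold change 0.50 to 0.99, adjusted p = 0.106 to 0.395). The PSBX call did not hold with GC-corrected offsets, with DESeq2 or without L26 replicate 1, L57 replicate 1 or L57 replicate 2 (log2 fold change 0.70 to 0.87, adjusted p = 0.06 to 0.12). In none of the 4 comparisons were the coding ACRs of PETC, PETE2, LHCB1.1, LHCB1.4, LHCB2.3, PSAK, PSBO2 and PSBY, the ACR upstream of PSAE2 and the second promoter ACR of PSBW called.

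Counts differed with the position of the summit. An ACR can reach beyond that position: those of LHCA6 and LHCB1.3, counted in the gene body and higher at L57, also extend over the gene's start. Promoter ACRs were higher at L57 than in DS in 27 of 42 (64.3%), where 16.8% of all promoter ACRs were. ACRs in the gene body were higher in 4 of 19 (21.1%), which is near the 17.0% of all ACRs. Those upstream were higher in 6 of 11 (54.5%) and those downstream in 6 of 8 (75.0%), both small groups. The median log2 fold change was 0.67, 0.24, 0.66 and 0.84 in the same order. Among promoter ACRs with no other gene at the summit 23 of 31 were higher, and among those with another gene there 4 of 11 were. The difference between these groups was not tested. The 12 ACRs called in opposite directions in 2 of the 3 successive steps included 4 promoter ACRs, LHCA1, LHCA3, PSAD2 and PSBO2. The first 3 fell at L6 against DS and rose at L26 against L6, and PSBO2 rose and then fell.

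Motifs were described within 250 bp of each summit, on both strands. The G-box CACGTG, bound by bZIP and bHLH factors of light signalling, was found at 20 of 42 promoter ACRs (47.6%), against 17.8% of all 10179 promoter ACRs. GATAAG was found at 27 of 42 (64.3%), against 25.6%, CCAATC at 26 of 42 (61.9%), against 23.7%, and AGATTCT at 13 of 42 (31.0%), against 13.8%. The telo-box AAACCCTA was at 0 of 42, against 15.3%, and TGGGCC at 9 of 42 (21.4%), against 34.7%. The other shares were 28.6%, against 31.5%, for TGGGCT, 16.7%, against 25.6%, for GGTTAA, 45.2%, against 56.8%, for TATAAA, and 2.38%, against 4.05%, for the evening element. Matches are letters in a window and not binding sites, and no match says nothing of a factor. These windows include transcribed sequence. In the 250 bases upstream of the start, CACGTG was found at 10 of 51 member genes (19.6%), against 6.49% of 27444 protein-coding genes, GATAAG at 12 (23.5%), against 12.3%, and CCAATC at 14 (27.5%), against 10.2%. The site II forms, less frequent than in all promoter ACRs around summits, were not less frequent there. TGGGCC was at 9 (17.6%), against 13.7%, and TGGGCT at 8 (15.7%), against 12.3%. In the first 250 bases of the gene GATAAG was found at 26 (51.0%), against 12.6%, and CACGTG at 12 (23.5%), against 4.07%. Promoter ACRs with a CACGTG were higher at L57 than in DS in 14 of 20 and those without in 13 of 22. With GATAAG the counts were 16 of 27, and 11 of 15 without, and with CCAATC 16 of 26, and 11 of 16 without. None of these differences was tested.

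**Figure D5:**
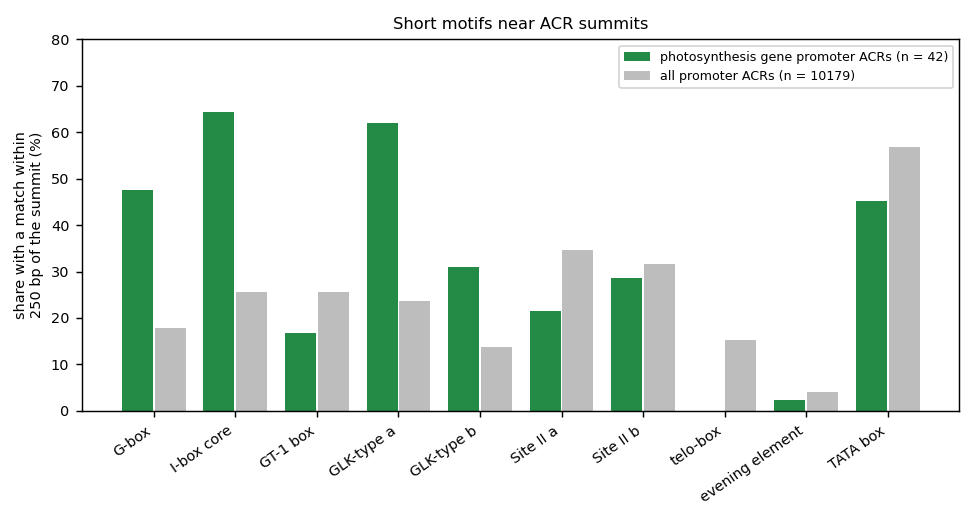
Share of promoter ACRs with at least 1 match within 250 bp of the summit, for the 42 photosynthesis gene ACRs (green) and all 10179 promoter ACRs (grey), by motif. The green bar is taller for the G-box, I-box core and both GLK-type motifs, and there is no match to the telo-box among the 42.

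Genes that regulate or build the apparatus, and some further subunit genes, were counted at their promoter ACR. Such an ACR was present at 9 of 13 regulation genes and 9 of 16 assembly and protection genes. All 4 genes of further subunits and cyclic transport had one. Of these 22 genes, 1 was higher and 1 lower at L57 than in DS, where 16.8% and 15.2% of all promoter ACRs were. At L6 against DS, 7 were higher and 1 lower, where 22.5% and 8.85% of all promoter ACRs were. The transcription factor gene GLK2 was among those higher at L6, with 28.5 and 23.7 CPM in DS, 40.9 and 52.0 CPM at L6, 34.2 and 27.9 CPM at L26, and 25.1 and 34.0 CPM at L57. The ferredoxin gene FD1 was the 1 higher at L57 and had 37.3 and 35.6 CPM in DS, 79.7 and 61.8 CPM at L6, 137 and 122 CPM at L26, and 133 and 90.8 CPM at L57. STN8, a thylakoid kinase gene, was the 1 lower, with 59.8 and 52.5 CPM in DS, 50.7 and 52.4 CPM at L6, 46.0 and 47.4 CPM at L26, and 31.2 and 38.001 CPM at L57. No test of the difference between these genes and the photosynthesis genes was made. Summed over the 4 seed coat markers with a promoter ACR, the level was 74.4 and 82.8 CPM in DS, 99.5 and 94.0 CPM at L6, 151 and 156 CPM at L26, and 106 and 129 CPM at L57. TT8 and GL2 were called higher at L57 than in DS, while MUM4 (log2 fold change 0.20) and TTG2 (0.34) were not called. TTG2 was called lower at L57 than at L26 (-0.57). These genes were seed coat markers by the list used, and whether they mark that tissue at these stages was not tested. Their part in the photosynthesis results was not tested either.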

How the data were processed

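ATAC-seq libraries of 2 replicates at each of 4 stages were analysed. Per the submitters' processing notes and the study's methods, reads were trimmed with fastp 0.23.4, aligned to TAIR10 with Bowtie2 2.4.4, filtered with SAMtools 1.14 and cleared of duplicates with Genrich 0.6.1, ACRs were called with MACS3 3.0.0b3 and merged with bedtools 2.30.0, and R 4.3.1 was used. The authors deposited read counts per ACR and CPM that they scaled with offsets depending on abundance (csaw). The same offsets, computed with limma 3.58.1 in R 4.3.3, matched to within 1.91e-12. Reads without molecular identifiers are not independent molecules.

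Counts of all 30223 ACRs were fitted together with edgeR 4.0.16 (quasi-likelihood test, 1 coefficient for each stage, the deposited offsets). P-values were adjusted over all ACRs by the method of Benjamini and Hochberg, with calls at an adjusted p under 0.05. Errors after ± are SE. Residual degrees of freedom were 4, and the common biological coefficient of variation was 9.73%. The median prior degrees of freedom were 190.8, so each test rests mostly on spread pooled over ACRs and little on the ACR's own libraries. The script was tested on simulated data. No column was left out. A planned filter on low counts removed no ACR, so ACRs above the median of mean CPM were tested instead, which was chosen after seeing the data.

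The genes, lists and motifs were chosen with earlier results of these data known. A pair of listed transport genes whose IDs the annotation did not pair with their symbols were left out. Per-library values were printed by a rule (in each comparison the 5 largest rises and falls with libraries that do not overlap and a mean of at least 10 CPM, in each complex the 4 ACRs with the smallest p over the stages, the main promoter ACR of paralogs, and ACRs called in opposite directions), and other ACRs so that every gene is accounted for. The 7 printed sequences were picked among the genes so named after their motif matches were seen, and motif counts relative to the gene start were added after those around summits. A further sequence is not reported here. Alternatives were TMM factors, total counts, GC-corrected offsets, DESeq2 1.42.0, an earlier form of the test, the compared stages alone, a replicate block, each library left out, and other membership windows. Leaving out a library leaves 1 for its stage, which is assumed to vary like the others.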

Additional observations from a re-analysis of the deposited data

How the results depend on the processing

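The 111 calls printed or counted for single ACRs and comparisons were recomputed in 1860 alternative values. Of these 1611 kept their direction and their side of the threshold, 245 kept the direction but missed the threshold, and 4 turned their direction. Those 4 were the LHCA4 promoter ACR at L57 against DS, at -0.25 with TMM factors, -0.14 with total counts and -0.22 with DESeq2, and the PSAD1 promoter ACR, at -0.012 with TMM factors; the cause was not tested. For the counts, DESeq2 gave 1 lower at L6 against DS, 10 higher at L26 against L6, 7 higher and 2 lower at L57 against L26, and 2 lower at L57 against DS. TMM factors gave 5 lower at L26 against L6 and 3 lower at L57 against DS, and total counts gave 2 lower at L57 against DS. Total counts also moved the median of all ACRs at L26 against L6 to 0.099, against -0.010. Among ACRs above the median of mean CPM (55 of the 80, chosen after seeing the data), 2 were lower at L57 against L26 and 2 at L57 against DS. With promoter ACRs only, which tests 42, counts of higher and lower were 4 and 3, 13 and 1, 11 and 0, and 27 and 0 in the order L6 against DS, L26 against L6, L57 against L26, L57 against DS, and 32 over the stages. With summits from 400 bp upstream to the gene's end (61 ACRs), 5 were lower at L6 against DS, 1 lower at L26 against L6 and 13 higher at L57 against L26. With only the ACR of highest mean CPM kept for each of the 50 genes, 49 ACRs were counted, as LHCB1.4 and LHCB1.5 share theirs. Of these ACRs, 4 were lower at L6 against DS, 12 higher at L57 against L26 and 38 called over the stages. Fewer ACRs are counted in these windows. Leaving out 1 library at a time gave 5 to 10 higher and 4 to 8 lower at L6 against DS, 13 to 22 higher and 0 to 3 lower at L26 against L6, 11 to 21 higher and 2 to 4 lower at L57 against L26, and 35 to 44 higher at L57 against DS. Deviations of same-numbered replicates over all ACRs were hardly correlated between stages (correlations from -0.041 to 0.023). That cannot show whether such replicates shared a culture or handling. With a replicate block 21 ACRs were higher and 2 lower at L26 against L6 and 61 were called over the stages. Depth limits the seedling libraries most.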
